A study of Mus musculus with 7 samples.

Results

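The genes described here are 10 components of the AKT and mTOR growth pathway, chosen by gene symbol from the deposited table: the AKT kinase genes Akt1 and Akt2, the mTOR complex genes Mtor, Rptor and Rictor, the tuberous sclerosis complex genes Tsc1 and Tsc2, and the translation control genes Rps6kb1, Eif4ebp1 and Eef2k. All 10 were found among 53819 genes. RNA was sequenced from the quadriceps, a large thigh muscle, of male wild type C57BL/6J mice in 7 libraries. The AAV8-IGFBP1 group (3 libraries) had received AAV8-Alb-IGFBP1 and the AAV8-Null group (4 libraries) AAV8-Alb-Null. Both are replication-deficient adeno-associated viruses of serotype 8, whose tropism is for the liver, named for Alb, the albumin gene. Each mouse was injected in the tail vein with 200 µl at 8 weeks of age, and muscle was taken 54 days later. The labels number the libraries within each group without saying that each is a separate mouse, so the p-values here reflect library-to-library spread, which may be technical.

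In muscle, insulin and insulin-like growth factors act through PI3-kinase to activate AKT, which inhibits the TSC complex and so releases the GTPase RHEB to activate mTOR complex 1 (mTORC1). mTORC1 phosphorylates S6 kinase, which promotes translation, and 4E-BP1, which in its unphosphorylated form blocks the cap-binding protein eIF4E. AKT and mTORC1 signalling is best known in muscle for promoting fibre growth, and it runs mainly by phosphorylation, which transcript levels do not measure. IGFBP1 is a secreted, mainly hepatic protein that binds insulin-like growth factors.

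Library totals ran from 39927146 to 46197214 estimated counts in AAV8-IGFBP1 and from 38947493 to 51210391 in AAV8-Null. Igfbp1 itself was at 3.14 to 34.5 CPM (TMM-scaled counts relative to library depth) in AAV8-IGFBP1, and at 0 counts in 3 AAV8-Null libraries and 0.195 CPM in AAV8-Null replicate 4. The 8 skeletal muscle fibre markers summed to 78503 to 88981 CPM in AAV8-IGFBP1 and 75106 to 84345 CPM in AAV8-Null, and none was at 0 in any library. The markers of slow fibres (11 genes, all detected in every library) summed to 333 to 989.6 CPM in AAV8-IGFBP1 and 723 to 2174 CPM in AAV8-Null. Of these 11, 10 had a log2 fold change of AAV8-IGFBP1 over AAV8-Null below 0 (median -1.39), and none was called. The 8 adipocyte markers, also all detected, summed to 801 to 2073 CPM in AAV8-IGFBP1 and 786 to 1241 CPM in AAV8-Null. Of these 8, 7 were above 0 (median log2 fold change 1.01) and none was called. Satellite cell markers (7 of 8 tested, 6 below 0 and 1, Sdc4, called lower) summed to 102 to 108 CPM in AAV8-IGFBP1 and 117 to 129 CPM in AAV8-Null, without overlap, and none was at 0. The 8 tenocyte markers, all below 0, summed to 81.0 to 326 CPM in AAV8-IGFBP1 and 176 to 406 CPM in AAV8-Null, and the 8 fibroblast markers, 7 of them below 0, to 322 to 568 CPM in AAV8-IGFBP1 and 506 to 818 CPM in AAV8-Null; none of either list was at 0. Hepatocyte markers summed to 19.3 to 75.0 CPM in AAV8-IGFBP1 and 12.7 to 16.2 CPM in AAV8-Null, nearly all of it Cyp2e1 (18.6 to 74.6 CPM in AAV8-IGFBP1 and 12.1 to 15.4 CPM in AAV8-Null), while Apoa1, Ttr, Serpina1a, Fga and Apob were each at 0 in at least 1 library. The sums of fast fibre, macrophage, endothelial and red blood cell markers overlapped between the groups. Below 0 were 7 of 8 macrophage markers (median log2 fold change -0.16) and 7 of 8 endothelial markers (median -0.08). Fast fibre markers were above 0 in 7 of 10 and red blood cell markers in 3 of 6. Apart from the fits with the slow fibre or adipocyte level as covariate, the part of these cell types in the results was not tested. AAV8-IGFBP1 replicate 2 held the adipocyte maximum and stood apart on the first principal component, at 45.2 against -25.7 to 12.6 in the other 6 libraries.

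None of the 10 genes passed edgeR's test between the groups. The largest positive differences among them were those of 2 genes whose products restrain translation, Eif4ebp1 and Eef2k. Eif4ebp1 averaged 30.7% more CPM and Eef2k 22.1% more in AAV8-IGFBP1 than in AAV8-Null, Akt1 17.8% more and Akt2 8.59% more, while the difference in mean CPM was -14.2% for Rictor. Mtor, Rptor, Tsc1, Tsc2 and Rps6kb1 had overlapping groups. By the quasi-likelihood test of edgeR, 0 of the 10 genes had an adjusted p below 0.05, a threshold passed by 83 of 14935 genes tested, or 0.556%. Of the 10 genes 4 had an unadjusted p under 0.05 in this test, as had 12.6% of all genes, and DESeq2 called 2, Eif4ebp1 and Eef2k, both higher, against 2.85% of the genes it tested (1.37% higher and 1.48% lower). limma-voom called 0 of the 10, against 0.415% of all genes. In 5 of the 10 genes the groups did not overlap (4 higher and 1 lower in AAV8-IGFBP1), against 12.3% of all genes tested (6.33% higher and 6.01% lower). The median log2 fold change was 0.06 over the 10 genes and -0.00065 over all genes, and the median size without regard to sign was 0.09 and 0.13. All 10 genes passed the filter on low counts, with 622 to 13567 counts in every library, so low counts limited none of them.

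**Figure D1:**
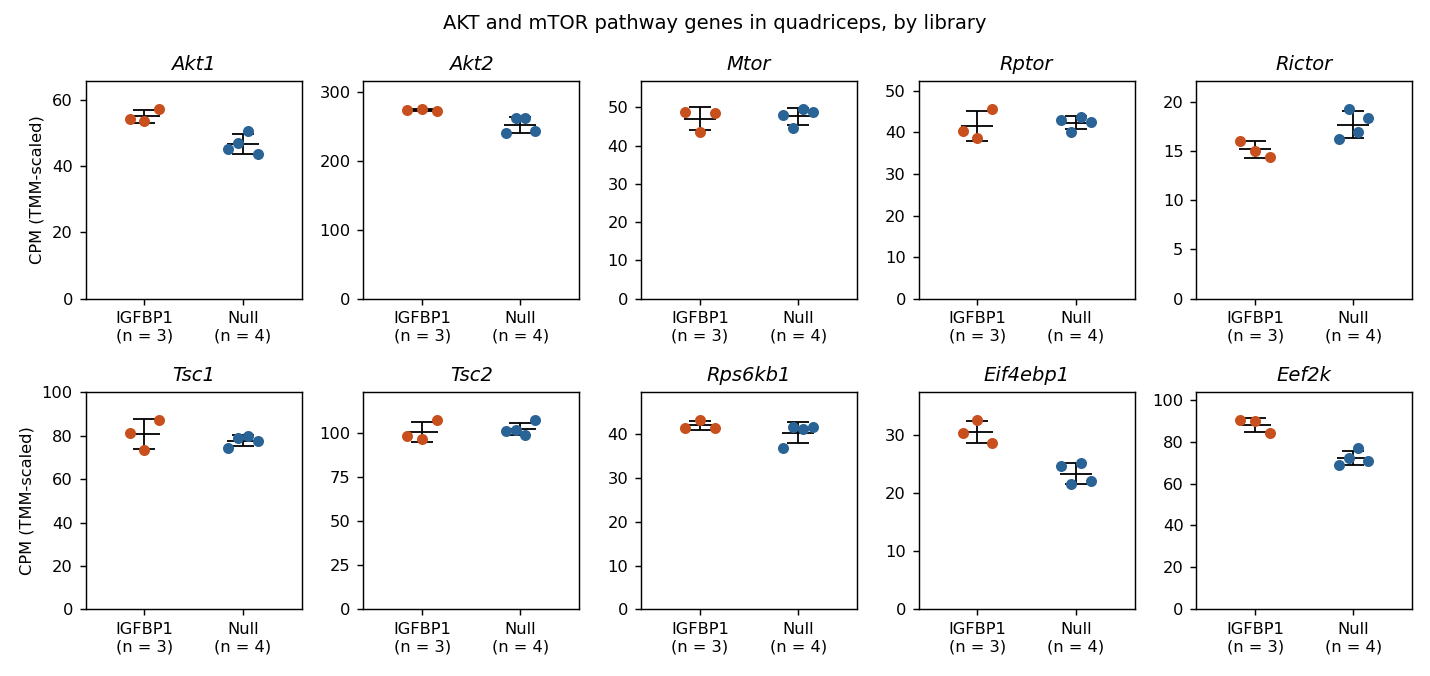
CPM (counts scaled to library depth by TMM) of the 10 genes in each library, with AAV8-IGFBP1 on the left and AAV8-Null on the right of each panel; points are libraries and bars the mean and SD (n = 3 and 4). The groups are apart in Eif4ebp1, Eef2k, Akt1, Akt2 and Rictor and overlap in the other 5 genes.

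AKT1 and AKT2 are the serine/threonine kinases that carry the growth factor signal from PI3-kinase, AKT2 being the isoform best known for insulin-stimulated glucose uptake. Akt1 was at 54.2, 53.6 and 57.1 CPM in AAV8-IGFBP1 replicates 1 to 3 and at 45.2, 47.0, 50.7 and 43.8 CPM in AAV8-Null replicates 1 to 4. Every AAV8-IGFBP1 library lay above every AAV8-Null library, the nearest pair being AAV8-IGFBP1 replicate 2 and AAV8-Null replicate 3. Its log2 fold change was 0.24 (SE 0.06, 95% interval 0.09 to 0.38) and did not pass (edgeR adjusted p = 0.169). Akt2 was at 274, 275 and 273 CPM in AAV8-IGFBP1, and at 241, 262, 262 and 244 CPM in AAV8-Null. The AAV8-IGFBP1 libraries lay close together (SD 0.382% of the mean) above all 4 AAV8-Null libraries, which spread more widely (4.57%). With so few libraries such closeness may be chance, and the difference in spread was not tested. For Akt2 the log2 fold change was 0.12 (SE 0.06, 95% interval -0.01 to 0.25, edgeR adjusted p = 0.437).

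Akt1 and Akt2 were compared per kilobase of exon, since longer transcripts give more reads. Akt2 averaged 38.4 ± 0.147 CPM per kilobase in AAV8-IGFBP1 and 35.4 ± 1.62 in AAV8-Null (SD, n = 3 and 4), and Akt1 13.4 ± 0.457 in AAV8-IGFBP1 and 11.4 ± 0.729 in AAV8-Null. Of the summed length-scaled level of Akt1 and Akt2, Akt1 made up 25.3% to 26.7% in AAV8-IGFBP1 and 23.8% to 25.2% in AAV8-Null, and these ranges did not overlap. Akt2 made up the rest, most of the sum in every library. Exon lengths are those of the union of all annotated isoforms in GENCODE M21, which is of another build than the authors' counts, so levels between genes are approximate.

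mTOR is the kinase shared by both complexes, RAPTOR (Rptor) the subunit that defines mTORC1 and RICTOR the subunit that defines mTORC2, which phosphorylates AKT. Mtor was at 48.9, 43.6 and 48.5 CPM in AAV8-IGFBP1, and at 48.0, 44.5, 49.4 and 48.9 CPM in AAV8-Null. The groups overlapped, with the lowest library in AAV8-IGFBP1 (replicate 2) and the highest in AAV8-Null (replicate 3). The log2 fold change of Mtor was -0.02 (SE 0.07, 95% interval -0.17 to 0.13, edgeR adjusted p = 0.933). Rptor ran from 38.5 to 45.5 CPM in AAV8-IGFBP1 and from 40.1 to 43.8 CPM in AAV8-Null, so the AAV8-IGFBP1 libraries enclosed the others. Its log2 fold change was -0.03 (95% interval -0.19 to 0.13, edgeR adjusted p = 0.904).

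Rictor was the one gene of the 10 whose AAV8-IGFBP1 libraries all lay below the AAV8-Null libraries. It was at 16.03, 15.05 and 14.4 CPM in AAV8-IGFBP1, and at 16.2, 19.2, 16.9 and 18.3 CPM in AAV8-Null. The gap between the nearest libraries, AAV8-IGFBP1 replicate 1 and AAV8-Null replicate 1, was small beside the spread within AAV8-Null. The log2 fold change of Rictor was -0.22 (SE 0.08, 95% interval -0.40 to -0.04), and edgeR's adjusted p was 0.302. With the slow fibre level as a covariate the log2 fold change was -0.35 (edgeR adjusted p = 0.251); the part of fibre type in the difference was not tested otherwise. As these are bulk samples, fewer cells of a type and less RNA per cell cannot be told apart for Rictor or any other gene here.

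TSC1 (hamartin) and TSC2 (tuberin) form the complex that switches RHEB off and so holds mTORC1 back. Tsc1 was at 81.3, 73.3 and 87.1 CPM in AAV8-IGFBP1 and between 74.5 and 79.8 CPM in AAV8-Null. Tsc2 was at 98.5, 96.6 and 107 CPM in AAV8-IGFBP1 and between 99.0 and 107 CPM in AAV8-Null. Both genes overlapped between the groups, with log2 fold changes of 0.05 for Tsc1 (95% interval -0.10 to 0.20, edgeR adjusted p = 0.808) and -0.02 for Tsc2 (95% interval -0.15 to 0.11, edgeR adjusted p = 0.923). Within AAV8-IGFBP1, replicate 2 had the lowest and replicate 3 the highest value of Tsc1, Tsc2 and Rptor alike.

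Rps6kb1 encodes S6 kinase 1, a main mTORC1 substrate. It was at 41.3, 43.2 and 41.5 CPM in AAV8-IGFBP1, and at 36.8, 41.7, 41.1 and 41.7 CPM in AAV8-Null. AAV8-Null replicate 1 lay below the other 6 libraries, which kept within 41.1 to 43.2 CPM. The log2 fold change was 0.06 (SE 0.06, 95% interval -0.08 to 0.20, edgeR adjusted p = 0.752). Per kilobase of exon, Rps6kb1 held 57.5 ± 2.27% of the level of the S6 kinase genes Rps6kb1 and Rps6kb2 in AAV8-IGFBP1 and 57.5 ± 1.72% in AAV8-Null (SD, n = 3 and 4). These shares depend on the exon lengths used, 8658 bases for Rps6kb1 and 5167 for Rps6kb2. Which gene is the more abundant was therefore not settled.

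Eif4ebp1 encodes 4E-BP1, the translation repressor that mTORC1 inactivates; its transcription is induced by the stress factor ATF4 in several cell types. It was at 30.3, 32.5 and 28.7 CPM in AAV8-IGFBP1, and at 24.6, 21.5, 25.2 and 22.1 CPM in AAV8-Null. Every AAV8-IGFBP1 library lay above every AAV8-Null library, and the highest was AAV8-IGFBP1 replicate 2, in which Igfbp1 and the adipocyte markers also peaked. The log2 fold change was 0.39 (SE 0.08, 95% interval 0.21 to 0.56), the largest of the 10 genes; the adjusted p was 0.0701 by edgeR, short of the threshold, and 0.00406 by DESeq2. Over all alternatives run, the log2 fold change kept between 0.34 and 0.43 and the adjusted p ran from 0.00406 to 0.311. It was 0.34 without AAV8-IGFBP1 replicate 2 (edgeR adjusted p = 0.197) and 0.36 with the adipocyte level as covariate (0.143).

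Among the 4E-BP genes, Eif4ebp2 was the most abundant per kilobase of exon, at 51.6 ± 3.403 CPM per kilobase in AAV8-IGFBP1 and 50.7 ± 2.76 in AAV8-Null, beside 13.9 ± 0.881 and 10.6 ± 0.836 for Eif4ebp1 (SD, n = 3 and 4). Eif4ebp1 made up 19.5% to 23.5% of the length-scaled 4E-BP level in AAV8-IGFBP1 and 15.2% to 18.8% in AAV8-Null, ranges that did not overlap. Eif4ebp3 stayed under 2% of this level in each library, with shares of 0.426% to 1.74% in AAV8-IGFBP1 and 0 to 0.591% in AAV8-Null.

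Eef2k encodes the kinase that phosphorylates and inhibits elongation factor eEF2, and S6 kinase phosphorylates and inhibits it in turn. Eef2k was at 90.2, 89.8 and 84.2 CPM in AAV8-IGFBP1, and at 69.0, 72.0, 76.7 and 70.7 CPM in AAV8-Null. The groups were apart, with the lowest AAV8-IGFBP1 library (replicate 3) above the highest AAV8-Null library (replicate 3). The log2 fold change was 0.29 (SE 0.06, 95% interval 0.16 to 0.42), and the adjusted p was 0.0711 by edgeR, again short of the threshold, and 0.00293 by DESeq2. Across the alternatives the log2 fold change ran from 0.22, with the slow fibre level as covariate (edgeR adjusted p = 0.380), to 0.32, and the adjusted p from 0.00293 to 0.380.

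**Figure D2:**
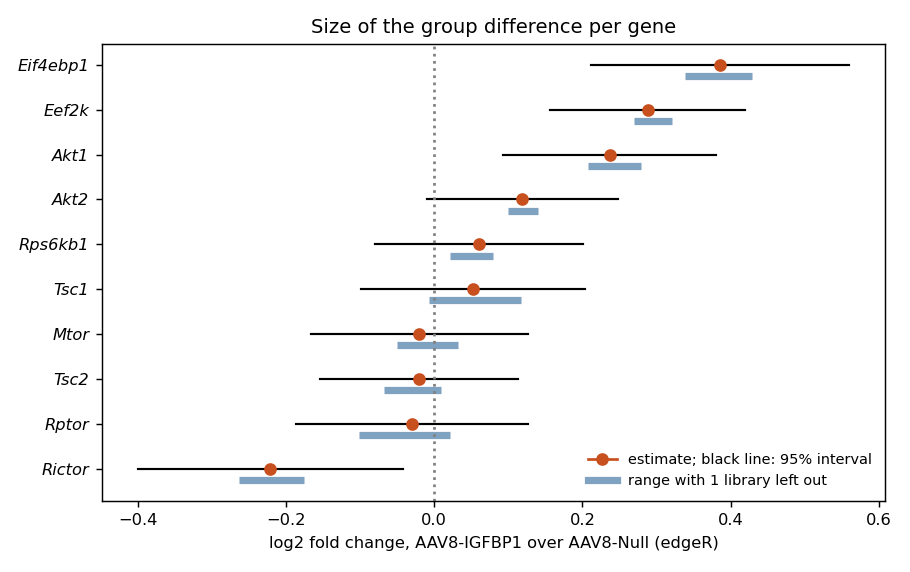
Log2 fold change of AAV8-IGFBP1 over AAV8-Null for each of the 10 genes (orange points, black lines the 95% interval of the edgeR fit), with the range of the estimate when 1 library is left out (blue bars). Eif4ebp1 at 0.39, Eef2k at 0.29 and Akt1 at 0.24 lie highest and Rictor at -0.22 lowest; the leave-out ranges of Mtor, Rptor, Tsc1 and Tsc2 span 0.

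Levels were also ordered across the 10 genes per kilobase of exon. In AAV8-IGFBP1 the order was Akt2 (38.4 CPM per kilobase), Eif4ebp1 (13.9), Akt1 (13.4), Eef2k (11.9), Tsc2 (10.5), Tsc1 (6.81), Rps6kb1 (4.86), Mtor (4.65), Rptor (3.08) and Rictor (0.895). The neighbours Eif4ebp1 and Akt1, and Rps6kb1 and Mtor, differed by less than their combined SDs. In AAV8-Null, Akt1 (11.4), Tsc2 (10.6), Eif4ebp1 (10.6) and Eef2k (9.74) held the places after Akt2, and each of these neighbours differed from the next by less than their combined SDs, as did Mtor (4.72) and Rps6kb1 (4.66), which stood in the other order than in AAV8-IGFBP1. Rptor and Rictor, which define the mTOR complexes, lay at the low end of this scale in both groups and Akt2 at the top.

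The 10 genes did not vary as 1 block across the libraries. The pattern of Eif4ebp1 over the 7 libraries was closest to that of Eef2k among the 10 (mean absolute difference of standardised log2 CPM 0.269, the smallest of all pairs), followed by the pair Akt1 and Akt2 (0.303). Rictor and Eef2k were the farthest apart (1.59). Mtor and Rptor, which share the mTORC1 complex, were at 0.512. These distances describe 7 libraries in which the group difference is included. Over all genes tested, the patterns most like that of Eif4ebp1 were those of Sec61a2 (0.0959), Ralgds (0.113) and Oasl2 (0.158). For Eef2k they were Gnptab (0.107), Golt1b (0.110) and Parp14 (0.130), and for Akt1 Mat2a (0.148), Phospho1 (0.156) and Ifi44 (0.189).

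**Figure D3:**
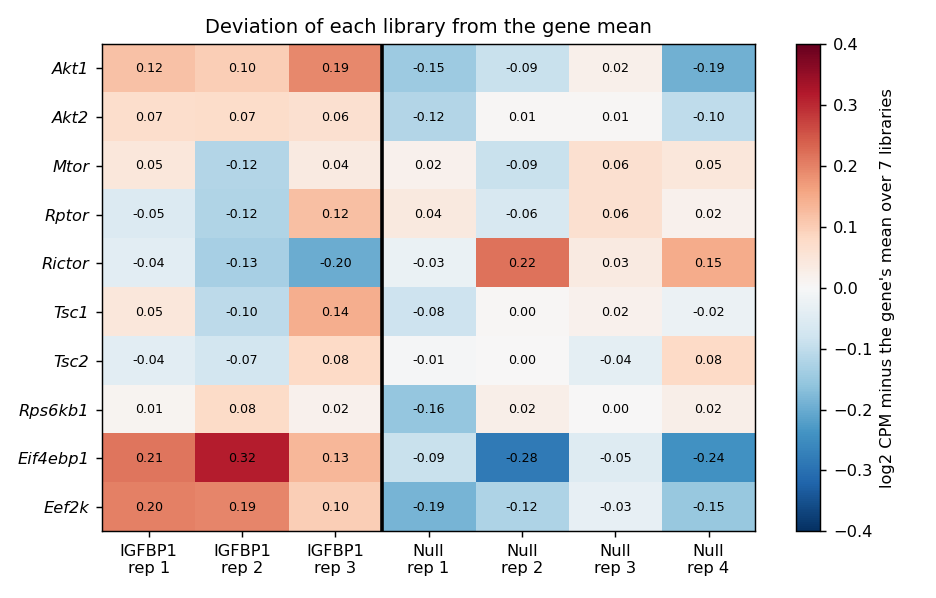
Deviation of log2 CPM from the mean of each gene over the 7 libraries, with the 3 AAV8-IGFBP1 libraries left of the black line and the 4 AAV8-Null libraries right of it. Eif4ebp1, Eef2k, Akt1, Akt2 and Rps6kb1 (at 0.01, 0.08 and 0.02) are above their mean in all AAV8-IGFBP1 libraries. Rictor is below its mean in all of them, and the rows of Mtor, Rptor, Tsc1 and Tsc2 mix both signs within AAV8-IGFBP1.

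Promoter windows are shown for Akt1, Eef2k and Rictor, genes whose groups did not overlap, as context for the genes described above. RefSeq entries of 300 bases on build GRCm38.p6, from 250 bases before to 50 after an annotated start, matched 9 of the 10 genes (all but Eif4ebp1), with 15 entries in all. Akt1 has 2 and Eef2k has 3 entries; the first listed is printed, and which start the muscle uses was not measured. The Akt1 window is chr12:112674835-112675134 on the minus strand, the Eef2k window chr7:120842581-120842880 on the plus strand and the Rictor window chr15:6708131-6708430 on the plus strand. Capitals mark matches, on either strand, to the motifs searched.
Akt1: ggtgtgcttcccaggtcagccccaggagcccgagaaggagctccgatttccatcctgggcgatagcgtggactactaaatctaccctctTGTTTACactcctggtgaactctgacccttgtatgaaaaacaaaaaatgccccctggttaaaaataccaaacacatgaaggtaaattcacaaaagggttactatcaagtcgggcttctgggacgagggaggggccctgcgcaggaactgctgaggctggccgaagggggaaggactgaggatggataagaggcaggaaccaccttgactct
Eef2k: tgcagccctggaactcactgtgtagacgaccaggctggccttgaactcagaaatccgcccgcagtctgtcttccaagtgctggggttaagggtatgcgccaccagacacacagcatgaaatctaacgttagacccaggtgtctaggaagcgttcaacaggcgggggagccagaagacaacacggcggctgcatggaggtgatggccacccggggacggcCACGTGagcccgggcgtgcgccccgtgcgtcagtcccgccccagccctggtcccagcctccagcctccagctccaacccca
Rictor: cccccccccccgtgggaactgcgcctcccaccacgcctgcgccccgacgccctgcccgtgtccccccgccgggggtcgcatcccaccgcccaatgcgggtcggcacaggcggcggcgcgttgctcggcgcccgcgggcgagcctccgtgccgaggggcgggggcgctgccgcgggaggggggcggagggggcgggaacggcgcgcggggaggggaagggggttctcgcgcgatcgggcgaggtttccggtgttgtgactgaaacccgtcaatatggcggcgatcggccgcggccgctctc

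The motifs were GTAAACA, bound by FOXO factors, which AKT inactivates, CACGTG, the E-box read by several basic helix-loop-helix factors, TGATGNAA, bound by ATF4, and TTCNNNGAA, bound by STAT5. The Akt1 window holds the FOXO letters, which 3.65% of 32851 promoter windows hold, and the Eef2k window holds the E-box, which 7.15% hold. No motif searched was found in the Rictor window, which is 78.3% G and C against 52.3% for the Akt1 window and 63.3% for the Eef2k window. The second Akt1 entry, not printed, is close to the Rictor window in this, with 79.7% G and C and no motif found, so the contrast holds for the printed Akt1 entry alone. Of the other entries not printed, the second of Eef2k, the first of Akt2 and that of Mtor hold the STAT5 letters (8.3% of all windows), and the third of Eef2k and the third of Akt2 hold the ATF4 letters (3.97%). A match is a description of these letters only.

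Around the 10 genes, 126 further genes of the pathway were listed by role, and 125 were tested. Of these 125 genes 1 rose and 0 fell by edgeR, against 0.362% higher and 0.194% lower of all genes tested. The other 124 did not pass. DESeq2 called 7, against 2.85% of all genes it tested: Pik3r1, Pik3cd, Deptor, Pdcd4, Tbc1d4 and Tfeb higher and Vldlr lower. The log2 fold change was above 0 in 81 and below 0 in 44, with a median of 0.03; of all genes tested 49.9% were above 0, the share to set beside the counts above 0 in the lists that follow. The groups did not overlap in 23 (18 higher and 5 lower), against 12.3% of all genes (6.33% higher and 6.01% lower). The gene that rose was Tbc1d4, which encodes AS160, the AKT substrate that controls movement of the glucose transporter GLUT4 to the muscle surface. It was at 71.0, 70.2 and 74.6 CPM in AAV8-IGFBP1, and at 57.9, 48.8, 51.5 and 57.7 CPM in AAV8-Null. All AAV8-IGFBP1 libraries lay above all AAV8-Null libraries, and the log2 fold change was 0.41 (SE 0.07) at an edgeR adjusted p of 0.0458. That call was lost when any 1 of the 7 libraries was left out: the adjusted p was 0.149, 0.107 and 0.110 without AAV8-IGFBP1 replicates 1, 2 and 3, and 0.0918, 0.0696, 0.106 and 0.0503 without AAV8-Null replicates 1 to 4, with log2 fold changes of 0.37 to 0.45. It also missed the threshold in limma-voom (0.0613), in edgeR with robust FALSE (0.0587) and with the adipocyte level as covariate (0.0759), and passed in DESeq2 (0.000224).

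Upstream of AKT, none of the 19 tested genes of PI3-kinase and its opposing phosphatases passed edgeR's test, 9 were above 0 and 10 below, and the median was -0.01. Pik3r1, which encodes the main regulatory subunit of PI3-kinase, was at 44.9, 56.3 and 38.8 CPM in AAV8-IGFBP1, and at 31.9, 29.8, 30.4 and 24.95 CPM in AAV8-Null. The groups were apart (log2 fold change 0.67, edgeR adjusted p = 0.0711, DESeq2 adjusted p = 0.00014). The catalytic subunit genes Pik3cd (log2 fold change 0.36, edgeR adjusted p = 0.112, DESeq2 adjusted p = 0.0309) and Pik3ca (0.19, 0.208) also had groups that did not overlap.

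Of the 9 tested partners of the mTOR complexes 0 passed and 8 were above 0 (median 0.10). Deptor, which encodes an mTOR-binding inhibitor, was at 139, 155 and 128 CPM in AAV8-IGFBP1 and between 101 and 119 CPM in AAV8-Null (log2 fold change 0.31, edgeR adjusted p = 0.152, DESeq2 adjusted p = 0.0371). Akt1s1, which encodes the mTORC1 inhibitor PRAS40, had 0.08 (0.624), and Prr5l, below 1 CPM in all libraries, 0.62 (0.648). Rheb, the GTPase that activates mTORC1, overlapped between the groups at 44.2 to 50.8 CPM in AAV8-IGFBP1 and 43.0 to 48.3 CPM in AAV8-Null (log2 fold change 0.05, edgeR adjusted p = 0.797). For its sparsely expressed relative Rhebl1 the log2 fold change was 0.85 (0.278), at 0.750 to 1.35 CPM in AAV8-IGFBP1 and 0.417 to 0.730 CPM in AAV8-Null, and Tbc1d7, the third TSC complex gene, 0.04 (0.892).

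Genes that bring amino acid signals to mTORC1 numbered 28, of which 0 passed, 18 were above 0 and 10 below (median 0.04). Rragd, a RAG GTPase gene, was at 347, 293 and 325 CPM in AAV8-IGFBP1 and between 249 and 287 CPM in AAV8-Null (log2 fold change 0.26, edgeR adjusted p = 0.189). Sesn1, which encodes the leucine-binding mTORC1 inhibitor sestrin 1, had 0.48 (0.210) and Wdr24, a GATOR2 subunit gene, 0.23 (0.326). Among 11 genes of the energy and stress inputs 0 passed, 7 were above 0 and the median was 0.01: the log2 fold changes (edgeR adjusted p in brackets) were 0.12 (0.394) for Stk11, which encodes the AMPK-activating kinase LKB1, -0.21 (0.446) for the AMPK subunit gene Prkag2 and 0.41 (0.464) for the AMPK kinase gene Camkk2.

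Downstream, 19 further genes of S6 kinase signalling, translation and transcription by RNA polymerases I and III were tested. Of these 0 passed and 16 were above 0 (median 0.03). Pdcd4, which encodes an inhibitor of the helicase eIF4A that S6 kinase marks for degradation, was at 14.3, 14.6 and 13.8 CPM in AAV8-IGFBP1 and between 11.1 and 11.9 CPM in AAV8-Null (log2 fold change 0.31, edgeR adjusted p = 0.0851, DESeq2 adjusted p = 0.0368). The initiation factor genes Eif4a2 (0.13, 0.362) and Eif4b (0.14, 0.377) had groups that did not overlap either. Besides Tbc1d4, the list of AKT substrates and a related kinase (11 genes) held Gab1, a docking protein gene (0.30, 0.176), and the forkhead factor gene Foxo4 (0.15, 0.340). Of these 11 genes 7 were above 0 (median 0.14).

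mTORC1 outputs and feedback genes (11 tested, 0 passed, 7 above 0, median 0.03) were led by Tfeb, the lysosomal gene activator that mTORC1 keeps out of the nucleus. Tfeb was at 69.0, 65.2 and 70.3 CPM in AAV8-IGFBP1, and at 59.5, 53.9, 53.7 and 56.4 CPM in AAV8-Null (log2 fold change 0.29, edgeR adjusted p = 0.0775, DESeq2 adjusted p = 0.00517). Rb1cc1 (0.17, 0.314) and Ulk1 (0.18, 0.432), genes of the autophagy-starting kinase complex, did not pass. The ATF4 targets, of which Eif4ebp1 is one, numbered 17 tested genes with 0 passing, 8 above 0 and 9 below, and a median of -0.02. Beside Eif4ebp1 at 0.39, the lowest unadjusted p-values in this list belonged to Vldlr, a lipoprotein receptor gene (-0.33, edgeR adjusted p = 0.144, DESeq2 adjusted p = 0.0208), and Shmt2, a mitochondrial serine enzyme gene (-0.23, 0.266), both with every AAV8-IGFBP1 library below every AAV8-Null library. The ATF4 targets Chac1 (1.39, 0.427), Asns (0.46, 0.796), Ddit3 (-0.34, 0.426) and Slc7a5 (-0.80, 0.282), picked after their values were seen, had signs that differed. Slc7a5 was lower in every AAV8-IGFBP1 library. Chac1, with the largest log2 fold change of this list in size, had groups that overlapped.

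**Figure D4:**
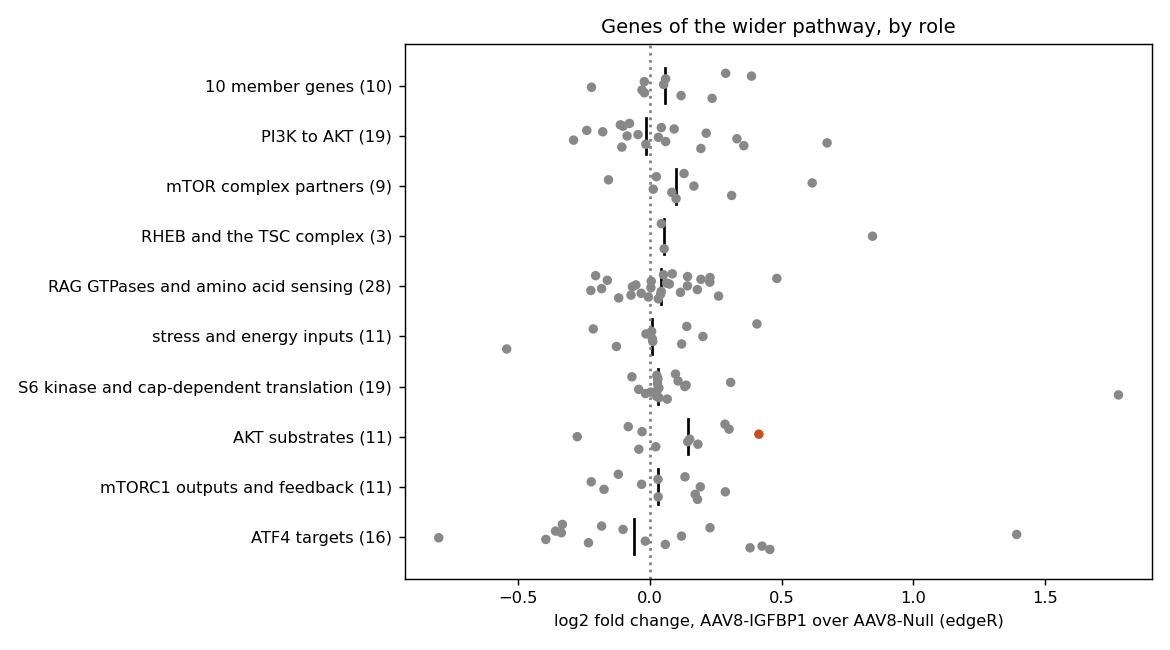
Log2 fold change of AAV8-IGFBP1 over AAV8-Null for the 10 genes and, by role, the further tested pathway genes (number of points in brackets, Eif4ebp1 only in the top row); black bars are medians and the orange point, Tbc1d4 at 0.41, is the gene that passed edgeR's test. Most points of each row lie within 0.5 of 0.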

How the data were processed

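Per the labels, a Universal Plus mRNA-Seq kit turned RNeasy-purified total RNA into libraries. The authors deposited estimated counts per gene symbol, 1 column per library; the submitters' processing notes name, without their roles, Salmon 1.10.1, STAR 2.7.9a, Trim Galore 0.6.7, cutadapt 3.4, R 4.2.2 and GRCm39 as the build. Which annotation and strand setting served is not given in the sources used here; overlapping genes could therefore share reads. Libraries were grouped by their titles. Library pairs within a group had a chi-square of 22.2 to 60.0 per degree of freedom, above sampling noise.

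Estimated counts were rounded and tested with edgeR 4.0.16 in R 4.3.3: filterByExpr (minimum count 10, minimum total 15), TMM scaling, glmQLFit with robust TRUE and glmQLFTest with group as the only term, and Benjamini-Hochberg adjustment over 14935 genes and a threshold of 0.05. Standard errors were approximated from each log2 fold change and the square root of its F statistic, and 95% intervals use the test's degrees of freedom. CPM values are TMM-scaled and log2 CPM used a prior count of 2. Counting error alone puts the floor of 3 counts at 0.0580 to 0.0786 CPM per library; reads are not independent molecules. DESeq2 1.42.0 and limma 3.58.1 voom were alternatives, and the steps were tested on simulated data. The 10 genes, the lists of further genes and markers and the tests were chosen with earlier results of these data known. The text names all 10 genes, Igfbp1, for each pathway list the genes called and the 3 with the lowest unadjusted p, and the marker called. It also names the 3 genes nearest in pattern to the 3 of the 10 with the lowest p. The paralogs Rps6kb2, Eif4ebp2 and Eif4ebp3 were added to compare levels within a family. The hepatocyte markers Cyp2e1, Apoa1, Ttr, Serpina1a, Fga and Apob were named after their values were seen. Other genes are marked as picked after their values were seen.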

Additional observations from a re-analysis of the deposited data

Results flagged for a closer look

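In 3 genes 1 AAV8-Null library lay far from the other 3 AAV8-Null libraries, its gap to the nearest one being over 0.829 of the group's range; 36 genes were checked in this way, and chance alone marks about 5% of groups. Rps6kb1 was at 36.8 CPM in AAV8-Null replicate 1 and 41.1 to 41.7 CPM in the other 3. Prkag2 was at 10.9 CPM in AAV8-Null replicate 3 and 10.2 CPM in the other 3, a small step that stands out since those 3 lie close together. Camkk2 was at 3.51 CPM in AAV8-Null replicate 4 and 4.80 to 4.90 CPM in the other 3. Groups of 3 libraries were not checked.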

How the results depend on the processing

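Of 180 values of the 10 genes under 18 alternatives, 164 kept their direction and side of the threshold, 4 gained a call and 12 changed sign. The count of the 10 genes called was 0 in most alternatives, each library left out in turn included, and 2 (Eif4ebp1 and Eef2k) with DESeq2, without a count filter and at a threshold of 0.1. The count of all genes called, 83, was 433 with DESeq2, 306 without a count filter, 215 at a threshold of 0.1, 19 with the replicate block, 46 with the slow fibre level as covariate, and 19 (without AAV8-Null replicate 1) to 86 (without AAV8-Null replicate 4) with 1 library left out. It was 28 and 23 without AAV8-IGFBP1 replicates 1 and 2 and 52 without AAV8-Null replicate 3; fewer libraries enter these fits, and the cause of the other shifts was not tested. The sign changes all concerned log2 fold changes near 0. With the slow fibre level as covariate Mtor was at 0.027, Rptor at 0.072 and Tsc2 at 0.041, and with the adipocyte level at 0.025, 0.014 and 0.00059. Without AAV8-IGFBP1 replicate 2 the 3 genes were at 0.032, 0.021 and 0.0098, their highest with 1 library left out (lowest -0.050, -0.10 and -0.067). Tsc1 was at -0.0065 without AAV8-IGFBP1 replicate 3 (highest 0.12), and Tsc2 at 0.0034 without AAV8-Null replicate 4 and at 0.0018 with the replicate block. Tbc1d4, the further pathway gene called, kept its direction in all 18 alternatives and its call in 7; it lost it in the 7 fits with 1 library left out, limma-voom, robust FALSE, the adipocyte covariate and the replicate block (adjusted p = 0.154). No pairing by replicate number was seen: deviations of same-numbered libraries correlated at -0.10, 0.07 and -0.06 across genes for numbers 1, 2 and 3. Deviations were taken from each group's own mean, which constrains these correlations, so they cannot exclude a pairing. The block, with AAV8-Null replicate 4 as its own block, removes degrees of freedom without a known pairing.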
